A study of Caenorhabditis elegans with 9 samples.

Results

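The muscle gene exons described here are the cassette exons of *tnt-3*, *unc-22*, *dys-1* and *fhod-1* in the splicing tables of nonsense-mediated mRNA decay (NMD) mutants of *C. elegans*. Every row carrying 1 of these 4 gene names was taken, which gave 5 exons of the 786 cassette exons in the tables. *tnt-3* has 2 of them, of 28 nt and 2207 nt, while *unc-22* (27 nt), *dys-1* (33 nt) and *fhod-1* (474 nt) have 1 each. RNA-Seq was performed on poly(A) RNA of whole L4 animals, with 3 libraries each of *smg-1* (TR1331) knockout, *smg-2* (CB4043) knockout and wild-type worms, all with N2 given as the strain. Each mutant is 1 strain, so anything else its strain carries cannot be told apart from the loss of the *smg* gene. RNA of whole animals also mixes body wall muscle, pharynx and all other tissues, so an inclusion level is an average over every cell that transcribes the gene, and a change of tissue composition cannot be told apart from a change of splicing.

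NMD degrades transcripts in which translation stops too early, and it requires both the helicase SMG-2 and the kinase SMG-1. A cassette exon whose length is not a multiple of 3 shifts the reading frame between its 2 isoforms, and where 1 of them stops early that isoform can be removed in wild-type and accumulate in the mutants. The 4 genes encode parts of the contractile machinery and its anchorage. *tnt-3* encodes a troponin T, the troponin subunit that holds the complex on tropomyosin along the thin filament. *unc-22* encodes twitchin, a giant kinase of the thick filament whose loss makes worms twitch. *dys-1* encodes dystrophin, which links the cytoskeleton to a membrane complex, and *fhod-1* encodes a formin, an actin assembly factor that takes part in building the sarcomeres of body wall muscle.

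All 5 exons lie on the minus strand (WBcel235 coordinates). The 28-nt exon of *tnt-3* (WBGene00006588) spans chromosome X, 7940797 to 7940824, between introns of 59 nt upstream and 172 nt downstream. It is present in 4 of the 11 annotated *tnt-3* transcripts and skipped in the other 7. The 2207-nt stretch of *tnt-3* spans X, 7941931 to 7944137, with an upstream intron of 382 nt and a downstream intron of 240 nt. No annotated transcript holds it as an internal exon, whereas 3 transcripts begin with a longer first exon, of up to 2779 nt, that contains it and uses the same downstream junction. In these 3 transcripts the start codon lies 375 nt upstream of the stretch and all 2207 nt are coding. The 27-nt exon of *unc-22* (WBGene00006759) spans IV, 11993340 to 11993366, between introns of 106 nt and 244 nt, and is present in 2 of 9 annotated transcripts.

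The sequences of the *tnt-3* and *unc-22* exons are shown because they are the shortest exon with a frame shift, the longest exon, and the exon with the lowest inclusion among the 5. They were read from WBcel235 on the transcribed strand, 5′ to 3′, with exon bases in capitals and intron bases in lower case. The first run holds the 28-nt exon with both whole introns (X:7940625-7940883). The next 2 runs hold the ends of the 2207-nt stretch, with 40 nt of each intron (X:7944114-7944177 and X:7941891-7941954). The last holds the 27-nt exon with its whole upstream intron and 151 nt of the downstream one (IV:11993189-11993472).
tnt-3 28-nt exon: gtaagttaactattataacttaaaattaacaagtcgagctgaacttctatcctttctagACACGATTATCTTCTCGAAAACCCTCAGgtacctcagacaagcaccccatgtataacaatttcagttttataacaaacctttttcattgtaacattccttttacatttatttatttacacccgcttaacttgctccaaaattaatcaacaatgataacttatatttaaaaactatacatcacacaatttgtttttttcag
tnt-3 2207-nt exon, start: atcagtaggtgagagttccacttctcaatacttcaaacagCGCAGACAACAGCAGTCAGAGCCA
tnt-3 2207-nt exon, end: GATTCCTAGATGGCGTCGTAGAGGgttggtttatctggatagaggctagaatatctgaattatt
unc-22 27-nt exon: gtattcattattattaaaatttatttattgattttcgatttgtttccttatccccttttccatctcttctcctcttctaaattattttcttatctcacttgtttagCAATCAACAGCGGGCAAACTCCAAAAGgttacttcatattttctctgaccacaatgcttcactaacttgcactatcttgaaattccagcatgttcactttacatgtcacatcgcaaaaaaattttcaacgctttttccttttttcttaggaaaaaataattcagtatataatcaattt
Each intron begins with gt and ends with ag where its end is shown. Within 150 nt on either side of each of the 5 muscle gene exons, or the whole intron where it is shorter, the transcribed strand held no TGCATG, the motif of RBFOX proteins, which was present beside 12.5% of the 782 exons searched. GTGTG, a motif bound by the muscle protein SUP-12, was present beside 20.7% of exons. It occurred once downstream of the *dys-1* exon and once on each side of the *fhod-1* exon, and beside none of the 3 exons shown. CTAAC, an element bound by the STAR protein ASD-2, occurred once downstream of the *unc-22* exon, where 12.9% of exons held it, and beside none of the other 4. These matches describe letters in a window and say nothing of binding.

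**Figure D1:**
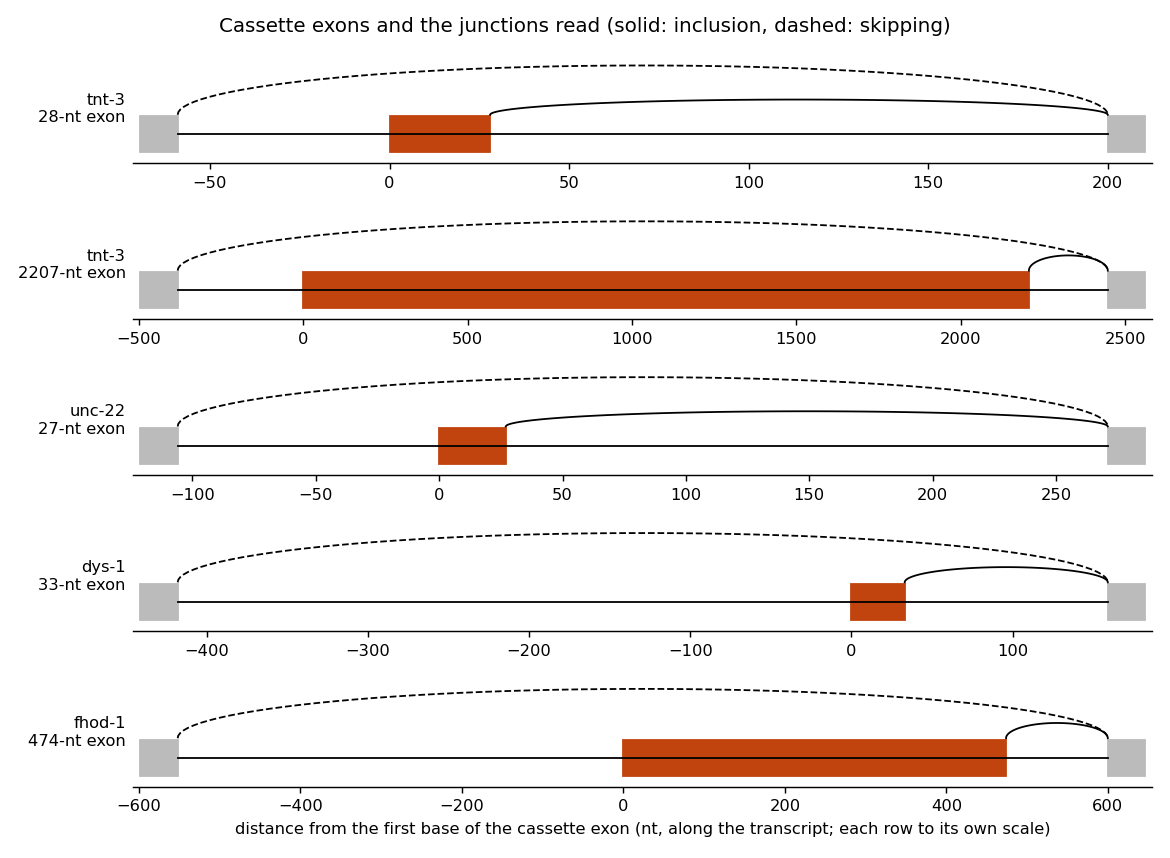
The 5 cassette exons (red) with their introns (line) and the start of the neighbouring exons (grey, drawn at a fixed width), against distance from the first base of the cassette exon in nt along the transcript, each row to its own scale. The solid arc is the inclusion junction counted and the dashed arc the skipping junction, which share the downstream splice site, so inclusion is read on the downstream side of the exon in all 5.

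The *dys-1* exon (WBGene00001131) spans chromosome I, 11545667 to 11545699, between introns of 418 nt and 126 nt, and is present in 3 of 10 annotated transcripts. The *fhod-1* exon (WBGene00016735) spans I, 5062125 to 5062598, between introns of 552 nt and 126 nt, and is present in 4 of 8. The 27-nt, 28-nt and 33-nt exons are among the shortest in the tables, since 6.39%, 6.78% and 9.85% of the 782 exons tested for *smg-1* are as short or shorter, and the median length is 102 nt. At the other end, 4 exons are as long as the 2207-nt stretch or longer, and 2.81% are as long as the *fhod-1* exon or longer.

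Isoforms with and without each exon were built from the annotated transcripts to ask what inclusion does to the reading frame. For the exons of *unc-22*, *dys-1* and *fhod-1*, whose lengths are multiples of 3, inclusion adds 9, 11 and 158 residues and the stop codon stays in the last exon. These are small additions to twitchin (7142 residues with the exon in 1 annotated isoform) and dystrophin (3674). The addition to FHOD-1 is a larger share, with 1346 residues with the exon and 1188 without it in 1 isoform. For the 28-nt exon of *tnt-3*, the included and skipped forms share an N-terminal part and have different C-termini. The study describes the Troponin domain as part of the skipped form and as missing from the included form. The included form ends 82 residues after the frames part, and the skipped form 121 to 185 residues after, according to the transcript. Downstream of the exon, 218 nt are read in both frames. In all 11 transcripts the stop codon of the included form lies more than 55 nt upstream of the last exon junction, at 172 to 319 nt. In the skipped form that was so in 1 of the 11, at 93 nt. Current models of NMD link a stop codon at such a place to decay, but the study classes this event as dual coding and resistant to NMD. Included as an internal exon after the annotated start codon, the 2207-nt stretch would end the protein at 73 residues.

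Inclusion is given as PSI (percent spliced in), the share of junction reads that include the exon. The files give skipping counts and skipping usage per library, and their genotype names conflict. With the genotype names of the counts exchanged, 100% of cells give a whole number of junction reads, against 26.8% and 25.9% as named in the *smg-1* and *smg-2* tables. Only with that exchange are the wild-type counts of the 620 exons in both tables the same, as the wild-type usage values already are, so usage names were kept. Over the 498 exons tested for *smg-2*, the junction reads of a library summed to between 47438 (*smg-2* replicate 3) and 160670 (wild-type replicate 1). Over the 782 tested for *smg-1*, they summed to between 88649 (wild-type replicate 2) and 319057 (*smg-1* replicate 1). The 782 include the rows with equal mutant values described next. The 2 sets of exons differ, so sums cannot be compared between them.

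A second point bears on *tnt-3* directly. For 122 exons the mutant values are equal in the *smg-1* and the *smg-2* table, and the 28-nt exon is 1 of them, so its mutant libraries carry both names. The junction numbers that JUM gave these rows are the same in both tables, while none of the 498 other shared exons has 1 number in both. Of the equal rows with a neighbour on each side, 118 of 118 have a number between those of their neighbours in the *smg-2* table, and 2 of 120 in the *smg-1* table. Their junction reads, as median ratios to wild-type replicates 1, 2 and 3, were 0.438, 1.78 and 0.339, against 0.424, 1.85 and 0.338 for the other exons of the *smg-2* table and 1.52, 2.67 and 0.983 for the same shared exons of the *smg-1* table. Both the numbering and the depth of these rows are thus those of the *smg-2* libraries. The 28-nt exon is therefore described against wild-type with its mutant libraries named as equal in both tables, and its *smg-1* level is not analysed here. The 2207-nt exon, with values of its own, stands in the *smg-1* table alone, so no comparison of the 2 *tnt-3* exons within 1 mutant was made.

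**Figure D2:**
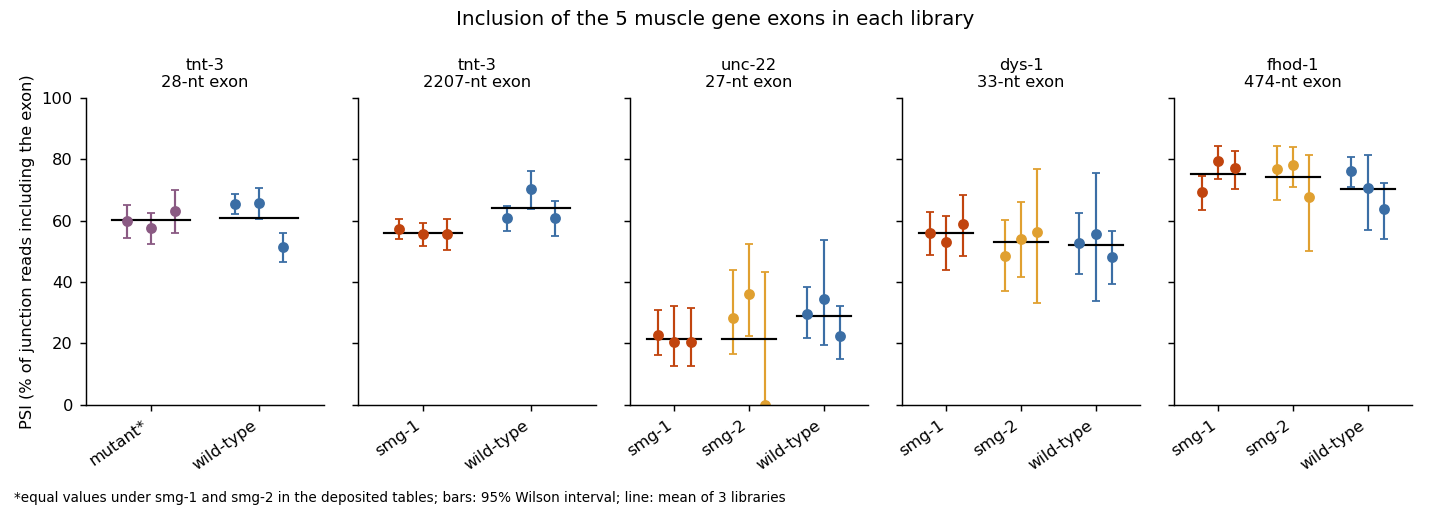
PSI in percent (vertical axis) of the 5 exons in each library, with the mutants left of wild-type. Points are libraries in the order of replicates 1, 2 and 3, bars their 95% Wilson intervals for counting error, and lines the means of 3 libraries. The *unc-22* exon sits lowest, at 0% to 36.1%, and the *fhod-1* exon highest, at 63.7% to 79.4%, with mutant and wild-type libraries overlapping in every panel except that of the 2207-nt exon.

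The 28-nt exon of *tnt-3* was included in most junction reads, and the means of mutant and wild-type libraries lay within 1 point. PSI was 59.8%, 57.5% and 63.2% in the mutant libraries equal in both tables, against 65.5%, 65.7% and 51.3% in wild-type. The mutant libraries lay within the range of wild-type, where replicate 3 stood below the other two. The means were 60.2% ± 2.84 in the mutant and 60.8% ± 8.28 in wild-type (SD, n = 3 each), a difference of −0.64 points with a 95% interval of −17.2 to 13.6 points. limma on logit PSI over all 619 eligible rows of the *smg-2* table gave an adjusted p of 0.96, and 0.956 over the 782 of the *smg-1* table. The exon rested on 182 to 358 junction reads per mutant library and 335 to 757 per wild-type library. Counting error alone would give wild-type an SD of 2.27 points, and the 95% Wilson interval of wild-type replicate 3, 46.6% to 55.9%, does not reach those of replicates 1 and 2, at 62.1% to 68.8% and 60.4% to 70.6%. Without mutant replicate 2, wild-type replicate 1 or wild-type replicate 2, the difference was 0.678, 1.71 or 1.79 points and so of the opposite sign.

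Over all exons tested with limma, 12.8% were called for *smg-1* (100 of 782, with an adjusted p under 0.05 and a PSI change over 10 points) and 15.1% for *smg-2* (75 of 498). Without the 122 equal rows the share was 13.3% for *smg-1*, and with them it was 14.1% for *smg-2*. None of the 5 muscle gene exons was called in either mutant, in 172 fits over all settings, in which the smallest adjusted p was 0.173. At these background shares a count of 0 among 5 exons is no result about them as a group. The intervals of the differences, given for each exon, bound what these libraries allow.

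**Figure D3:**
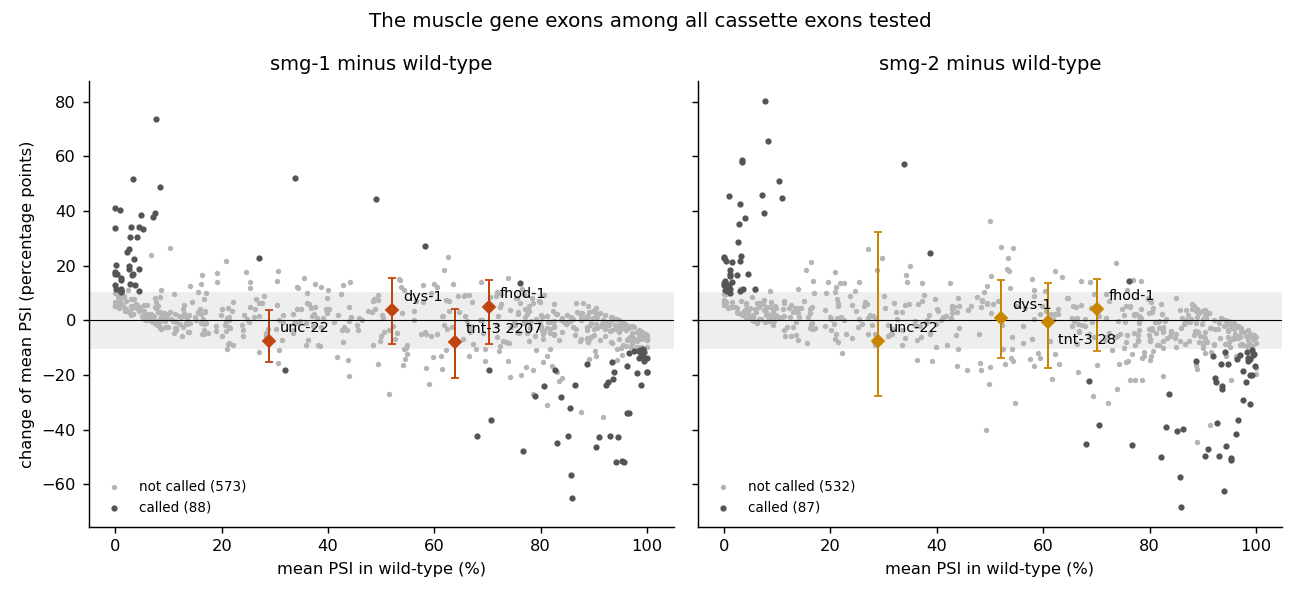
Change of mean PSI in percentage points (vertical axis) against mean PSI in wild-type (horizontal axis, %) for all exons tested in *smg-1* (left, without the 122 equal rows) and *smg-2* (right, with them). Dark points are called exons, the grey band covers 10 points either way, and diamonds are the muscle gene exons with 95% intervals. The muscle gene exons all lie within the band and at wild-type levels of 28.9% to 70.2%.

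The 2207-nt stretch of *tnt-3* was the exon whose *smg-1* and wild-type libraries did not overlap. PSI was 57.2%, 55.5% and 55.5% in *smg-1*, against 60.8%, 70.2% and 60.8% in wild-type. All *smg-1* libraries lay below all wild-type libraries, which held for 19% of the 646 exons with a value in every library, so this order is common in the table. The means were 56.1% ± 0.979 in *smg-1* and 64% ± 5.45 in wild-type (SD, n = 3 each). The difference of −7.88 points (95% interval −21.3 to 4.45) gave an adjusted p of 0.41 in limma. It was −4.74 points without wild-type replicate 2, and kept its sign in every fit that left out 1 library. The exon rested on 373 to 923 junction reads per *smg-1* library and 205 to 543 per wild-type library. Since transcripts that start at the longer first exon use the same downstream junction, its PSI counts alternative first exons with any internal use, and the 2 cannot be told apart on this junction.

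The *unc-22* exon was the least included of the 5. PSI was 22.7%, 20.6% and 20.6% in *smg-1* and 28.2%, 36.1% and 0% in *smg-2*, against 29.5%, 34.6% and 22.5% in wild-type. Replicates 2 and 3 of *smg-1* lay below every wild-type library and replicate 1 just above the lowest of them, while the *smg-2* libraries spread on both sides of wild-type. The difference was −7.55 points in *smg-1* (95% interval −15.4 to 3.9, limma adjusted p = 0.364) and −7.41 points in *smg-2* (−27.5 to 31.5, adjusted p = 0.606). The 0% of *smg-2* replicate 3 rested on 5 junction reads, none of them inclusion, which allows a PSI of up to 60% by the limit of 3 counts. Without that library the *smg-2* difference was 3.31 points. Most of the 250 junction reads in *smg-1*, the 80 in *smg-2* and the 227 in wild-type came from twitchin transcripts that skip these 27 nt.

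The *dys-1* exon was included in about as many junction reads as skipped it. PSI was 55.9%, 52.9% and 58.9% in *smg-1* and 48.5%, 54.1% and 56.2% in *smg-2*, against 52.6%, 55.6% and 48% in wild-type. The 3 groups overlapped. Means were 55.9% ± 3 for *smg-1*, 53% ± 3.98 for *smg-2* and 52.1% ± 3.81 for wild-type (SD, n = 3 each). The differences were 3.83 points in *smg-1* (95% interval −8.79 to 15.8, limma adjusted p = 0.715) and 0.897 points in *smg-2* (−13.6 to 14.9, adjusted p = 0.941). The SDs were below the 4.5 to 8.78 points that counting error alone gives at 16 to 186 junction reads per library, so no spread beyond counting was detectable at this depth. Dystrophin transcripts with and without the 11 codons were both present in every library.

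The *fhod-1* exon was the most included of the 5. PSI was 69.2%, 79.4% and 77.1% in *smg-1* and 76.7%, 78.2% and 67.7% in *smg-2*, against 76.3%, 70.6% and 63.7% in wild-type. Again the 3 groups overlapped. Means were 75.2% ± 5.31 for *smg-1*, 74.2% ± 5.65 for *smg-2* and 70.2% ± 6.27 for wild-type (SD, n = 3 each). The differences were 5.02 points in *smg-1* (95% interval −8.8 to 15, limma adjusted p = 0.64) and 4.01 points in *smg-2* (−11.2 to 15, adjusted p = 0.739). The form of the formin without these 158 residues was the less frequent one in every library.

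In wild-type the order of mean PSI was *fhod-1* (70.2%), the 2207-nt (64%) and the 28-nt exon (60.8%) of *tnt-3*, *dys-1* (52.1%) and *unc-22* (28.9%). The libraries of each neighbour in this order overlapped, except those of *dys-1* and *unc-22*. The exons with the closest values over the same libraries were of other genes in each case. Over all 9 libraries, the nearest to *dys-1* was an exon of C34F6.10 (root mean square difference 6.13 points), the nearest to *fhod-1* an exon of *sma-5* (3.86 points) and the nearest to *unc-22* an exon of *twnk-1* (8.2 points). Over 6 libraries, the nearest to the 28-nt exon of *tnt-3* was an exon of *ifb-2* (4.92 points) and the nearest to the 2207-nt exon an exon of H06I04.6 (3.23 points).

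Set against each other, the mutants were tested over the 498 exons with values of their own in both. limma called 0 exons, or 0% of them, and 42 had an unadjusted p under 0.05. The *smg-2* minus *smg-1* difference was 0.137 points for *unc-22* (95% interval −20.1 to 36.6, adjusted p = 0.839), −2.94 points for *dys-1* (−14.7 to 8.49, adjusted p = 0.86) and −1.01 points for *fhod-1* (−13.8 to 8.63, adjusted p = 0.939). These intervals leave room for differences of over 10 points in each case. For *unc-22* the interval and p come from the logit difference of −0.73, whose sign is opposite to that of the difference in points. In that logit the 0% of *smg-2* replicate 3 entered as 1%.

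The junction reads of each event, inclusion and skipping summed, gave a level around the exon, which the choice of exons did not use. Libraries were scaled on the cassette exon events alone, so each level is relative to those events and not to all transcripts. Events were left out where all junction reads of a library included the exon, since their sum could not be recovered. edgeR's quasi-likelihood test was run on the summed reads, without the equal rows for *smg-1* and with them for *smg-2*. It called 4.47% of 582 events for *smg-1*, all 26 of them higher, and 5.03% of 557 for *smg-2*, 27 of 28 higher (adjusted p under 0.05). None of the muscle gene events was called. For the 2207-nt exon of *tnt-3* the log2 fold over wild-type was 0.25 in *smg-1* (adjusted p = 0.573), and for the 28-nt exon it was −0.18 in the libraries equal in both tables (adjusted p = 0.779). For *unc-22* it was −0.43 in *smg-1* (adjusted p = 0.503) and −0.85 in *smg-2* (adjusted p = 0.471). For *dys-1* it was 0.15 in *smg-1* (adjusted p = 0.862) and −0.02 in *smg-2* (adjusted p = 0.991), and for *fhod-1* 0.15 in *smg-1* (adjusted p = 0.835) and 0.05 in *smg-2* (adjusted p = 0.969). In bulk RNA, fewer muscle cells and less RNA per cell cannot be told apart in such levels.

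The wider set of 109 genes of sarcomere, attachment, excitation and the dystrophin complex was read in the same way. Without the equal rows, 30 exons of 27 of these genes were tested in *smg-1* and 25 exons of 23 in *smg-2*. In *smg-1*, 0 rose and 1 fell by limma, beside 42 and 46 of all 661 exons (13.3% called), with a median change of −0.62 points beside −0.437 points over all exons, and a median absolute change of 3.25 points beside 5.22 points. In *smg-2*, 0 of 25 were called by limma, beside 34 that rose and 41 that fell of all 498 (15.1% called), with a median change of −0.24 points beside −0.13 points over all exons, and a median absolute change of 4.15 points beside 6.06 points. Their lengths were multiples of 3 in 83.3% of the exons in the *smg-1* comparison, beside 60.2% over all exons.

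**Figure D4:**
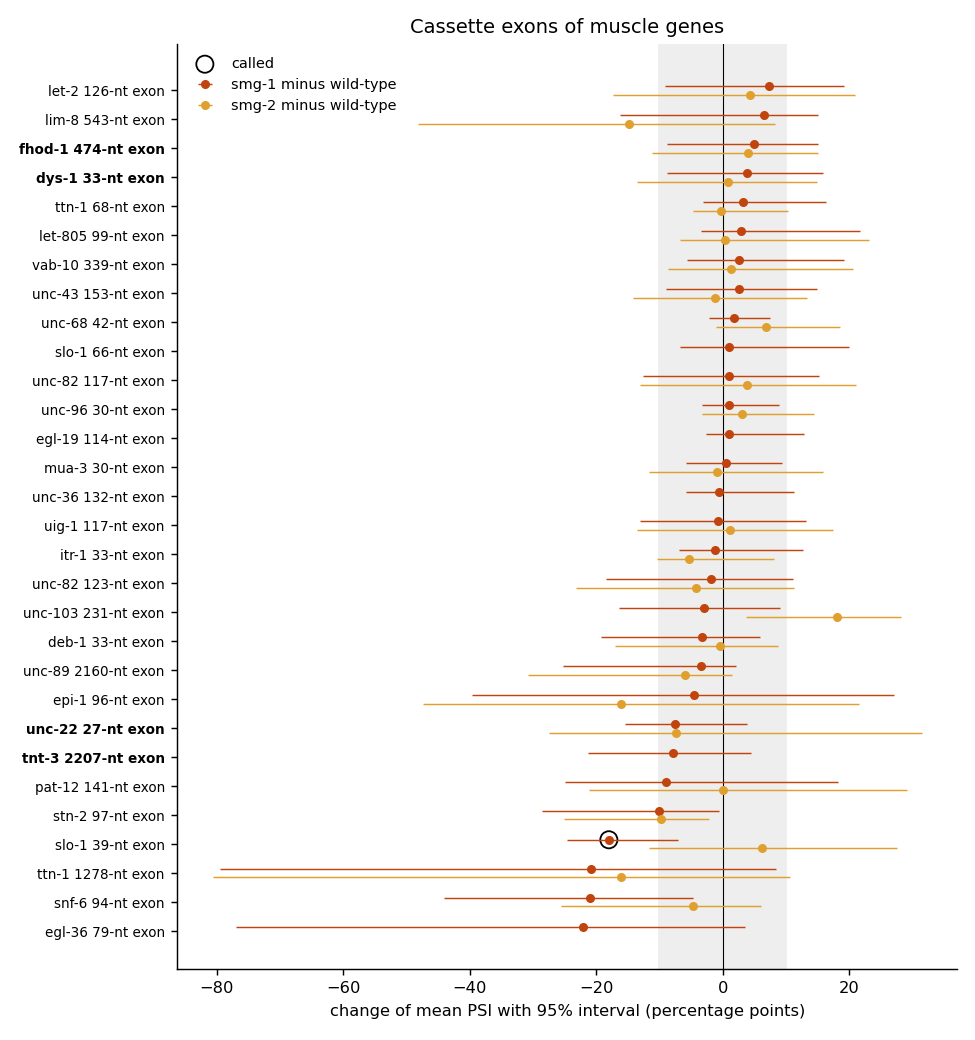
Change of mean PSI in percentage points (horizontal axis) with 95% intervals for the 30 muscle gene exons with *smg-1* values of their own (rows, ordered by the *smg-1* change), *smg-1* above *smg-2*. The grey band covers 10 points either way, bold names are *tnt-3*, *unc-22*, *dys-1* and *fhod-1*, and the circle marks the 1 called exon, of *slo-1*, at −18 points.

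The exon that fell was a 39-nt exon of *slo-1*, which encodes a BK potassium channel that works with the dystrophin complex in muscle. Its PSI was 9.76%, 18.4% and 13.3% in *smg-1*, against 32.8%, 38.9% and 23.9% in wild-type, a fall of 18 points (limma adjusted p = 0.0494). All *smg-1* libraries lay below all wild-type libraries, an order that 19% of exons had. In *smg-2* it was 39.3%, 25% and 50%, a difference of 6.24 points from wild-type with an adjusted p of 0.739. The *smg-2* minus *smg-1* difference was 24.3 points (95% interval 7.63 to 44), with an adjusted p of 0.366, so the mutants are not shown to differ. The *smg-1* call was lost without any 1 of the *smg-1* libraries or wild-type replicate 1 or 2, with PSI changes of −20.3 to −14.5 points and adjusted p of 0.0639 to 0.172, and stood without wild-type replicate 3 (adjusted p = 0.0403). It was also lost with the replicate block (adjusted p = 0.0787), with both mutants in 1 fit (0.056), under wider limits of PSI (0.0588) and with inclusion reads counted at 0.5 (a change of −11.6 points, 0.052). The exon rested on 45 to 82 junction reads per *smg-1* library and 18 to 58 per wild-type library.

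In the dystrophin complex list, 5 exons of 4 genes were tested in *smg-1*, with changes of −21 to 3.83 points, and the 39-nt *slo-1* exon was the 1 called. Falls of this size were not particular to the complex. The 7 exons of calcium and excitation genes changed by −22.1 to 2.56 points in *smg-1*. The 5 exons of giant kinase or M-line genes changed by −20.9 to 6.52 points, and 0 exons of either kind were called. A second *slo-1* exon, of 66 nt, had a PSI of 17.6%, 16.4% and 13.9% in *smg-1*, against 22.2%, 6.25% and 16.3% in wild-type, a difference of 1.05 points (limma adjusted p = 0.816). *dys-1* itself, as given above, had a *smg-1* difference of 3.83 points and a *smg-2* difference of 0.897 points. The other 2 exons of the dystrophin complex were not called either, but passed the threshold under some alternatives. A 94-nt exon of *snf-6*, an acetylcholine transporter that binds the dystrophin complex, had a PSI of 66.1%, 61.3% and 61.5% in *smg-1*, against 80%, 92.6% and 79.3% in wild-type (a difference of −21 points, adjusted p = 0.0641). It was called with both mutants in 1 fit (adjusted p = 0.0387), with at least 20 reads in every library (0.0412) and without wild-type replicate 2 (−16.7 points, 0.0353). In *smg-2* it was 82.8%, 71.7% and 83.3%, and the adjusted p was 0.67. A 97-nt exon of *stn-2*, a syntrophin, was 80%, 82.3% and 92.8% in *smg-1* (adjusted p = 0.119) and 85.1%, 84.5% and 86.1% in *smg-2* (adjusted p = 0.0543), against 92.9%, 94.4% and 97.8% in wild-type. With the replicate block it was called in *smg-1* (−10 points, adjusted p = 0.0344). Neither length is a multiple of 3.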

How the data were processed

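Alignment by the authors used STAR and splicing was quantified in JUM 2.0.2, with a minimum of 5 junction reads for an event. Per library they deposited read counts over the exon-skipping junction and the fraction of an event's junction reads that skip. PSI was 100% minus that fraction, and junction reads were the count divided by it, rounded to whole numbers within 6e-05 of usage. The counts' genotype names were exchanged, as described above. The p-value, fold change and PSI change columns of the authors' own comparisons were not used. Gene counts and other splicing classes are not analysed here.

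PSI was limited to 1-99% and its logit tested with limma 3.58.1 (R 4.3.3), with Benjamini-Hochberg adjustment over all eligible exons of a table and no replicate block. Intervals in points were converted at the wild-type mean, or at the *smg-1* mean where the mutants were compared. Left out were 1 row with coordinates out of order, and rows with fewer than 2 values in a group (3 in the *smg-1* and 1 in the *smg-2* table). The planned *smg-2* fit left out the 122 equal rows, and since these rows follow the *smg-2* libraries, the fit over all its rows is given for the 28-nt exon of *tnt-3*. Mean PSI of the mutants spans 5.03% to 95% in the *smg-1* table, so exons outside that range are missing by a limit on mutant PSI that the sources used here do not describe. Event levels and the alternative test on junction reads used edgeR 4.0.16. The limma test and both edgeR tests were also run on simulated data with a set spread between libraries, which need not match that of the real exons. No statement here rests on those runs. Isoforms and sequences came from WBcel235, whose splice site dinucleotides flank all 785 skipping introns with coordinates in order. Other steps used Python 3.11.15, numpy 2.4.6, pandas 2.3.3 and scipy 1.17.1. Wilson intervals and the limit of 3 counts cover counting error only, since reads are not independent molecules.

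Genes and lists were chosen with earlier results of these data known. Named beyond the 4 genes are list exons called in a mutant in the main fit or under an alternative, and the closest exons by PSI. The dystrophin complex exons of the list are also named, by role and whether called or not. Replicates are separate biological samples per the study's methods. Same-numbered libraries correlated at −0.0296 to 0.16 in their deviations from the group means, and at 0.00801 to 0.16 where *smg-2* took part. No correlation of libraries with different numbers is given beside these, so they cannot decide whether numbers pair the libraries. The main fits used no pairing, and fits with a replicate block are given as an alternative.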

Additional observations from a re-analysis of the deposited data

How the results depend on the processing

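No alternative moved any of the 5 exons past the threshold in the comparisons made for it. The *tnt-3* exons were not compared between the mutants. The *smg-1* calls numbered 64 at an adjusted p under 0.01, 158 for changes over 5 points and 56 over 20 points, and the *smg-2* calls 41 over 20 points. The *smg-1* counts in this paragraph include the equal rows, whose depth is that of the *smg-2* libraries, and the *smg-2* counts leave them out. In the main fit *smg-1* calls numbered 100 with these rows and 88 without them. With 1 library left out there were 69 to 113 calls for *smg-1*, 54 to 72 for *smg-2* and 0 between the mutants. With the replicate block there were 80 calls for *smg-1*, 63 for *smg-2* and 0 between the mutants, and the block changed no call of the 5 exons. edgeR on junction reads called 90 of 671 in *smg-1* and 72 of 457 in *smg-2*. The alternative that counts inclusion reads at 0.5 assumes 2 inclusion junctions, while these tables count 1.

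With 1 library left out, the PSI change ran from −5.42 to 1.79 points for the 28-nt exon of *tnt-3* and from −9.47 to −4.74 points for its 2207-nt exon. For *unc-22* it ran from −10.7 to −4.66 points in *smg-1*, from −14.7 to 3.31 points in *smg-2* and from −7.2 to 10.9 points between the mutants. For *dys-1* it ran from 1.8 to 5.58 points in *smg-1*, from −1.14 to 3.11 points in *smg-2* and from −4.58 to −0.722 points between the mutants. For *fhod-1* it ran from 1.79 to 8.06 points in *smg-1*, from 0.782 to 7.25 points in *smg-2* and from −4 to 2.22 points between the mutants. The sign thus reversed in some of these fits for the 28-nt exon, and for *unc-22* and *dys-1* in *smg-2*. It also reversed for *unc-22* and *fhod-1* between the mutants. In the other comparisons the sign was constant, but their intervals over all libraries, given above, reach both signs. Direction is therefore not settled in any of these comparisons.

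The log2 fold of event reads, added after seeing the data, lay with 1 library left out between −0.12 and 0.7 for *dys-1* in *smg-1*, and in *smg-2* between −0.44 and 0.55. For *fhod-1* it lay between −0.01 and 0.58 in *smg-1*, and in *smg-2* between −0.14 and 0.45. The *unc-22* limits were −0.6 and −0.27 for *smg-1*, with −1.37 and −0.54 for *smg-2*. They were −0.31 and −0.04 for the 28-nt exon of *tnt-3*, and 0.14 and 0.35 for its 2207-nt exon. Over the muscle gene list, also added then, *smg-1* calls numbered 0 under wider limits of PSI or with inclusion reads at 0.5, 2 with the arcsine square root or weights from reads (*slo-1* and *snf-6*), 3 by edgeR (with *stn-2*) and 0 to 1 with 1 library left out. The 1 call was *slo-1* without wild-type replicate 3 and *snf-6* without wild-type replicate 2, *snf-6* in place of *slo-1* with both mutants in 1 fit or at least 20 reads in every library, and *stn-2* in its place with the replicate block. *smg-2* calls numbered 1 with both mutants in 1 fit (*unc-103*) and 0 with 1 library left out. The causes were not tested.

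Depth limits the *unc-22* and *dys-1* exons most, at 5 to 39 and 16 to 68 junction reads per *smg-2* library.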
